A study of Danio rerio with 28 samples.

Results

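The genotypes thraa+/- and wild type (WT) were compared in the injured zone of the adult zebrafish ventricle at 8 hours post injury (hpi). The comparison rests on 4 of the 28 RNA-seq libraries of the series, 2 from WT and 2 from thraa+/- mutants, chosen by their genotype and time labels and by no measured value. These 4 belong to a time course of 24 libraries in 12 groups of 2, in which each genotype was sampled without injury and at 8 hpi and 1, 3, 7 and 15 days post injury (dpi). The fish were 4 to 6 months old, about 20% of the ventricle was resected at the apex, and each library pooled the injured zones of at least 5 fish, or the apex of uninjured ventricles. The mutants carry an 8-bp insertion made with CRISPR/Cas9 that truncates the ligand-binding domain of thraa. The sample labels call them knockouts, and their genotype as heterozygotes comes from the design text of the series. The animals therefore keep a WT allele of thraa. The 2 libraries of a group are separate pools of fish. A p-value here rests on the spread between pools, estimated for each gene over all 12 groups and not at 8 hpi alone.

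Thyroid hormone receptors are nuclear receptors that bind DNA mostly as partners of retinoid X receptors, repress target genes without hormone and activate them when triiodothyronine is bound. The deiodinases, encoded by the dio genes, make and break down the active hormone. Thyroid hormone is known for the maturation of cardiomyocytes after birth and for the loss of their capacity to divide. In the zebrafish heart, an apex wound is closed by a clot within hours while neutrophils and then macrophages enter, fibroblasts lay down a passing matrix, and surviving cardiomyocytes later divide to replace the lost muscle.

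Values are CPM, the counts relative to the library total scaled by the trimmed mean of M-values (TMM). Total expected counts at 8 hpi were between 14317545 and 15305244, within the range of 13692204 to 18775025 in the time course. The 2 WT libraries correlated with r = 0.983 over log2 CPM, the 2 thraa+/- libraries with r = 0.977, and pairs of different genotype with r between 0.944 and 0.956. Replicate pools of WT at 8 hpi varied 8.07 times as much as counting alone gives, those of thraa+/- 21.9 times, and those of the other 10 groups 1.87 to 5.5 times. The median absolute log2 difference between replicates set them less far apart. It was 0.21 in WT and 0.29 in thraa+/- at 8 hpi, and 0.14 to 0.21 in the other 10 groups. The standard errors and p-values below share the spread of all groups, so they can be too small for 8 hpi. Replicate 2 of thraa+/- had a TMM factor of 0.888 and the other 3 libraries had factors from 0.981 to 1.03. Among the 2470 genes with the shortest transcripts, of 5 classes by length, the median log2 difference of replicate 2 from replicate 1 was 0.33 in thraa+/- mutants and 0.13 in WT, and among the 2470 with the longest it was −0.15 and −0.06. At 8 hpi, 5 genes that reached 10 CPM were at least 4 times as high in replicate 2 as in replicate 1 of both genotypes, among them rn7sl1, a signal recognition particle RNA, with 9.53 and 64.6 CPM in WT and 4.42 and 103 CPM in mutants. Cardiomyocyte markers summed to between 131900 and 158800 CPM in the 4 libraries and none of these markers was at 0.

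A gene was called where its adjusted p was under 0.05 and its log2 fold change was 1 or more in either direction. Of 17837 genes tested, 1881 (10.5%) were called between the genotypes at 8 hpi, 1227 higher (6.88%) and 654 lower (3.67%) in thraa+/- mutants. A log2 fold change of at least 2 was reached by 398 of the higher genes, and 231 of the lower genes were at −2 or below. For 1876 of the 1881 the groups did not overlap in CPM, which was also the case for 57.3% of all genes tested, 29.7% higher and 27.6% lower. Where non-overlap is given below, these shares are its background, and for a called gene it adds little to the call. Both WT libraries were at 0 for 63 of the higher genes, and both mutant libraries were at 0 for 68 of the lower ones. With the adjusted p alone, 3050 genes (17.1%) were higher and 2395 (13.4%) lower. Fitted on the 4 libraries at 8 hpi alone, 1396 of 14810 genes tested were called, 947 higher and 449 lower. When each of the 4 libraries was left out in turn, 988 of the 1881 genes (52.5%), 692 higher and 296 lower, were called in the same direction each time. Short transcripts were called higher more often than long ones, with 254 higher and 72 lower in the shortest of the 5 length classes and 101 higher and 106 lower in the longest. The part of transcript length in these counts was not tested.

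**Figure D1:**
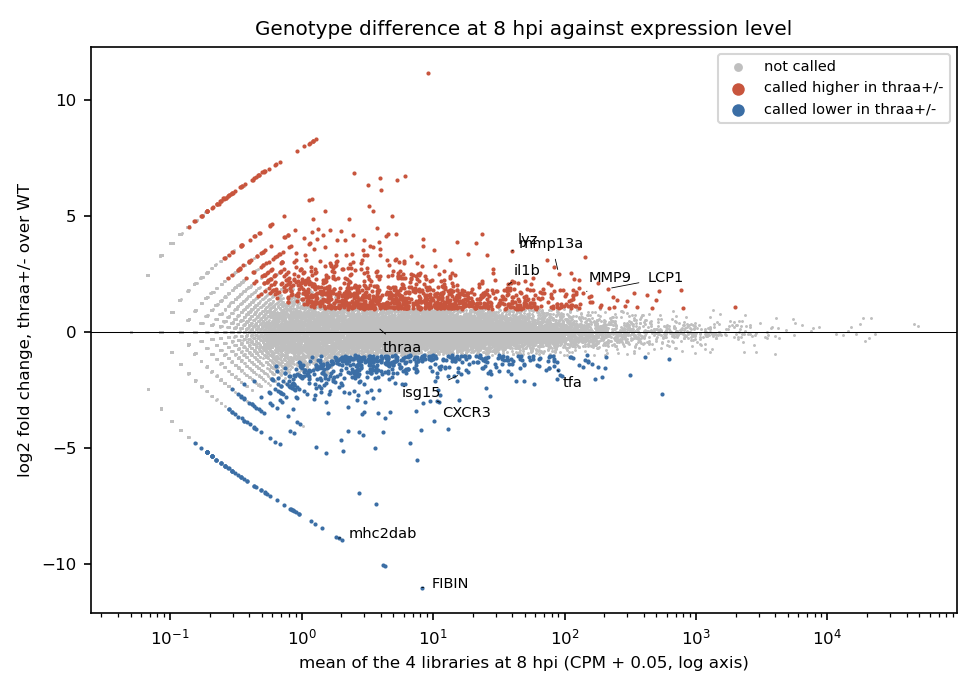
Log2 fold change between thraa+/- mutants and WT at 8 hpi (vertical axis) against the mean CPM of the 4 libraries plus 0.05 (horizontal log axis), 1 point per gene tested. Red points are the 1227 genes called higher and blue points the 654 called lower, grey points were not called, and the bands at the far left and along the outer curves are genes at or near 0 counts in a genotype, whose fitted fold change is no measure of size.

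thraa itself (ENSDARG00000000151) had 3.13 and 3.61 CPM in WT and 4.35 and 3.61 CPM in thraa+/- mutants. The groups overlapped, and the log2 fold change of 0.24 ± 0.27 (standard error, SE; edgeR adjusted p = 0.54) did not pass the test. The count is of all transcripts of the gene and does not separate the 2 alleles, so it does not check the genotype labels. Around the receptor, 2 of the 15 measured genes of thyroid hormone signalling were called higher and 0 lower (13.3%, against 10.5% of all genes tested). Both were retinoid X receptors of the gamma type. rxrga (ENSDARG00000005593) had 9.04 and 7.99 CPM in WT and 21.9 and 22.1 CPM in mutants (log2 fold change 1.37 ± 0.17 SE, edgeR adjusted p = 7.1e-09). rxrgb (ENSDARG00000004697) had 6.33 and 7.64 CPM in WT and 14.9 and 13.5 CPM in mutants, and its log2 fold change of 1.02 (edgeR adjusted p = 1.6e-05) fell under 1 without replicate 1 of either genotype. Both mutant libraries lay above both WT libraries for each of them. THRB (ENSDARG00000021163), which encodes the beta receptor, passed the adjusted p alone with a log2 fold change of 0.56 (3.90 and 4.46 CPM in WT, 6.83 and 5.45 CPM in mutants, edgeR adjusted p = 0.033). The same was true of DIO1 (ENSDARG00000042112), an activating deiodinase, with 20.6 and 19.7 CPM in WT and 24.3 and 26.4 CPM in mutants (log2 fold change 0.33 ± 0.11 SE, edgeR adjusted p = 0.023). Without injury THRB (1.09, edgeR adjusted p = 4.5e-06) and rxrgb (0.81, edgeR adjusted p = 0.00095) were also higher in mutants. Neither difference between the times was called (−0.53, edgeR adjusted p = 0.15, and 0.22, edgeR adjusted p = 0.61). rxrga was not called without injury (−0.39, edgeR adjusted p = 0.13), and DIO1 was lower there (−0.58, edgeR adjusted p = 3.4e-05). The median of the 15 genes was 0.24 on the log2 scale, against 0 over all genes tested, and it turned to −0.24 without replicate 1 of thraa+/- and to −0.01 without replicate 2 of WT.

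Genes of leukocytes were higher in thraa+/- mutants at 8 hpi. Among markers that leukocytes of several kinds share, 9 of 10 were called higher and 0 lower, against 6.88% higher over all genes tested, with a median log2 fold change of 1.62. LCP1 (ENSDARG00000023188), which encodes an actin-bundling protein of leukocytes, had 86.8 and 96.6 CPM in WT and 318 and 349 CPM in mutants (log2 fold change 1.86 ± 0.07 SE, edgeR adjusted p = 2.7e-24). CORO1A (ENSDARG00000054610), an actin-binding protein of the same cells, had 50.1 and 52.9 CPM in WT and 160 and 201 CPM in mutants (log2 fold change 1.81 ± 0.08 SE, edgeR adjusted p = 1.4e-21). Both mutant libraries were above both WT libraries for these genes, as for 29.7% of all genes tested. ARPC1B (ENSDARG00000027063), a subunit of the complex that branches actin, rose from 74.8 and 83.8 CPM to 209 and 244 CPM (log2 fold change 1.51 ± 0.07 SE, edgeR adjusted p = 1.4e-20). The member that was not called, ptprc (ENSDARG00000071437), which encodes the phosphatase CD45, had 29.8 and 30.9 CPM in WT and 53.5 and 46.9 CPM in mutants (log2 fold change 0.73 ± 0.09 SE, edgeR adjusted p = 4.4e-09). In tissue samples of this kind, more cells of a type and more RNA per cell cannot be told apart.

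Of 20 macrophage genes, 15 were called higher and 0 lower, against 6.88% and 3.67% of all genes tested. Their median was 1.78, and all 20 had a positive log2 fold change. Without replicate 2 of thraa+/- 13 were called higher, and with replicates 1 alone 14 were. grna.1 (ENSDARG00000089362), a granulin of zebrafish phagocytes, had 323 and 363 CPM in WT and 1030 and 1350 CPM in mutants (log2 fold change 1.79 ± 0.08 SE, edgeR adjusted p = 1.1e-21). The transcription factors spi1a (ENSDARG00000067797) and SPI1 (ENSDARG00000000767), of the PU.1 family that directs myeloid development, rose together. spi1a went from 15.2 and 13.9 CPM to 65.8 and 60.9 CPM (log2 fold change 2.12 ± 0.10 SE, edgeR adjusted p = 9.9e-21), and SPI1 from 14.9 and 16.1 CPM to 59.4 and 56.5 CPM (1.90, edgeR adjusted p = 3.7e-19). LGMN (ENSDARG00000039150), a lysosomal protease, had 141 and 139 CPM in WT and 339 and 379 CPM in mutants (log2 fold change 1.36 ± 0.07 SE, edgeR adjusted p = 8.6e-20). csf1ra (ENSDARG00000102986), the receptor for macrophage colony-stimulating factor and the best known marker of the list, moved less, with 4.24 and 2.69 CPM in WT and 6.16 and 4.78 CPM in mutants (log2 fold change 0.66 ± 0.22 SE, edgeR adjusted p = 0.019). The list holds 6 genes of the MFAP4 symbol, near copies of each other, between which reads can be shared out wrongly.

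Among 9 neutrophil genes, 4 were called higher and 0 lower, against 6.88% and 3.67% of all genes tested, with a median of 1.44. This median became 1.0 without replicate 1 of WT, 1.15 without replicate 2 of thraa+/- or under DESeq2, and 0.71 on log2(TPM + 1). lyz (ENSDARG00000057789), which encodes lysozyme C of granulocytes and macrophages, had 5.98 and 7.07 CPM in WT and 58.9 and 87.0 CPM in mutants, which is 11.2-fold higher (log2 fold change 3.48 ± 0.20 SE, edgeR adjusted p = 1.5e-12). npsn (ENSDARG00000010423), a metalloproteinase of zebrafish neutrophils, rose from 13.2 and 14.7 CPM to 43.6 and 51.1 CPM (log2 fold change 1.76 ± 0.13 SE, edgeR adjusted p = 7.0e-15). NCF1 (ENSDARG00000033735), a subunit of the phagocyte oxidase, rose from 30.8 and 33.4 CPM to 95.7 and 108 CPM (log2 fold change 1.66 ± 0.09 SE, edgeR adjusted p = 2.5e-18). For all 3 genes both mutant libraries were above both WT libraries, as for 29.7% of all genes tested. Lymphocyte genes were scarce. Of 9 genes of T and NK cells 2 were called higher (22.2%, against 10.5% of all genes tested), and 0 of 5 genes of B cells were called. The T and NK median of 1.08 became 0.34 without replicate 2 of thraa+/- and 0.04 on log2(TPM + 1). nkl.2 (ENSDARG00000058673), an NK-lysin of cytotoxic lymphocytes, had 0.348 and 0.212 CPM in WT and 6.16 and 12.4 CPM in mutants (log2 fold change 5.01 ± 0.50 SE, edgeR adjusted p = 5.7e-11). CCR9 (ENSDARG00000055186), a chemokine receptor of T cells, had 8.00 and 10.1 CPM in WT and 19.1 and 19.1 CPM in mutants (log2 fold change 1.08 ± 0.13 SE, edgeR adjusted p = 9.6e-09), and fell to 0.90 without replicate 1 of WT.

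**Figure D2:**
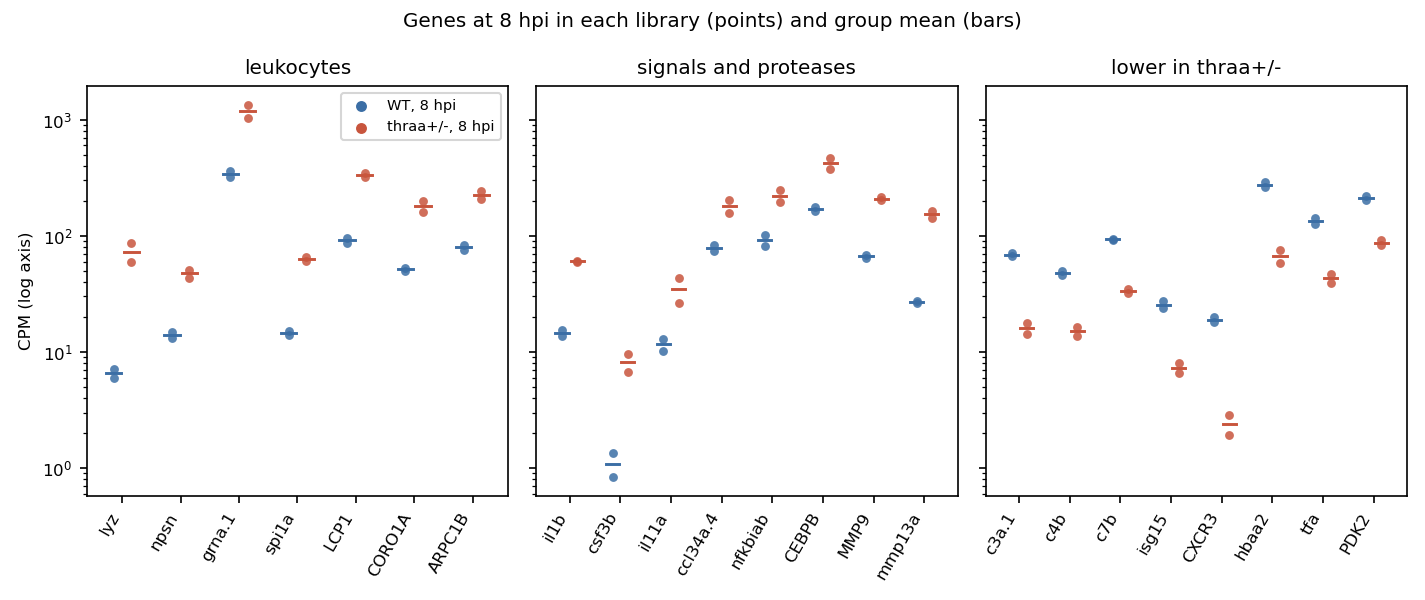
CPM on a log axis in each library at 8 hpi for 23 genes, with WT in blue and thraa+/- in red, 1 point per library and a bar at the mean of each group of 2. The 7 leukocyte genes and the 8 genes of signals and proteases lie above WT in both mutant libraries, and the 8 genes of the right panel lie below WT in both.

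The sums of the leukocyte lists show the same difference in each library. The shared leukocyte markers summed to 428 and 449 CPM in WT and 1261 and 1387 CPM in mutants, and none was at 0 in any library. Macrophage genes summed to 660 and 708 CPM in WT and 2116 and 2675 CPM in mutants. Of these sums grna.1 alone made 323 and 363 CPM in WT and 1030 and 1350 CPM in mutants. LGMN made a further 141 and 139 CPM in WT and 339 and 379 CPM in mutants. Neutrophil genes summed to 586 and 653 CPM in WT and 955 and 1165 CPM in mutants. In uninjured hearts the order was the other way round: the macrophage sum was 451 and 466 CPM in WT and 275 and 260 CPM in mutants. At that time 0 macrophage genes were called higher and 8 lower, with a median of −1.12, against 5.68% and 5.79% of all genes tested. At 1 dpi 3 were higher and 1 lower, with a median of 0.42, against 4.9% and 2.69%. The difference of the genotype effects between 8 hpi and the uninjured state was itself called for 18 of the 20 macrophage genes and for 10 of the 10 shared leukocyte genes, all upward. Among all genes tested it was called upward for 8.11% and in either direction for 14.1%.

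**Figure D3:**
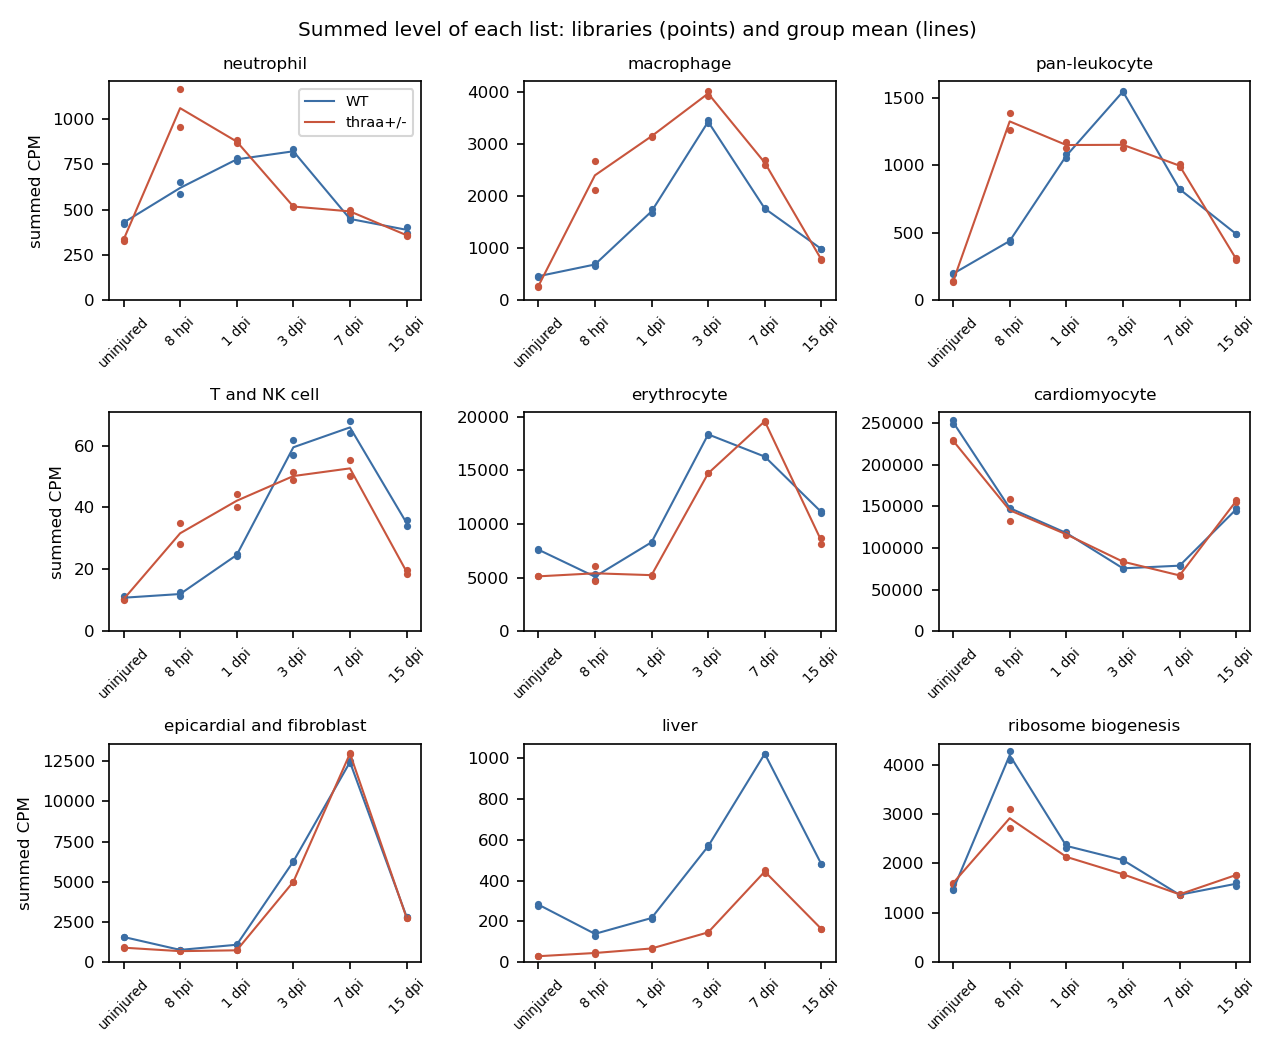
Summed CPM of 9 gene lists over the 6 sampling times, with WT in blue and thraa+/- in red, points for single libraries and lines through the group means, each panel on its own linear axis from 0. In the neutrophil, macrophage and shared leukocyte panels the mutant libraries start below WT without injury and lie above WT at 8 hpi, as for the shared leukocyte markers at 1261 and 1387 CPM against 428 and 449 CPM.

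Cytokines moved in both directions. Of 29 measured, 6 were called higher and 2 lower (27.6%, against 10.5% of all genes tested), and their median log2 fold change was 0.56. il1b (ENSDARG00000098700), the interleukin that starts much of the acute response of leukocytes, had 13.8 and 15.5 CPM in WT and 59.2 and 61.2 CPM in mutants (log2 fold change 2.04 ± 0.14 SE, edgeR adjusted p = 2.2e-15). Its groups were far apart, and the difference of 1.77 at 1 dpi (edgeR adjusted p = 2.6e-13) was not told apart from that at 8 hpi (difference 0.27, edgeR adjusted p = 0.39). csf3b (ENSDARG00000098752), a granulocyte colony-stimulating factor, rose from 0.835 and 1.34 CPM to 6.76 and 9.49 CPM (log2 fold change 2.89 ± 0.46 SE, edgeR adjusted p = 2.8e-06). il11a (ENSDARG00000037859), a cytokine of the interleukin-6 family that zebrafish need to regenerate several organs, went from 13 and 10.2 CPM to 43 and 26.6 CPM (log2 fold change 1.59 ± 0.22 SE, edgeR adjusted p = 2.3e-06). tnfb (ENSDARG00000013598), of the tumor necrosis factor family, had 1.25 and 2.76 CPM in WT and 5.29 and 6.18 CPM in mutants (log2 fold change 1.51 ± 0.29 SE, edgeR adjusted p = 6.6e-05).

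The best known partners of these cytokines did not pass. tnfa (ENSDARG00000009511) had 0.417 and 0.354 CPM in WT and 0.669 and 0.809 CPM in mutants, and its log2 fold change of 0.92 ± 0.61 SE did not pass (edgeR adjusted p = 0.27). il6 (ENSDARG00000102318) overlapped between the groups, with 0.696 and 1.06 CPM in WT and 1.14 and 0.589 CPM in mutants (log2 fold change −0.02 ± 0.72 SE, edgeR adjusted p = 1.0). At these levels a change of 2-fold was not detectable for either gene. The 2 cytokines called lower were csf1a at −1.26 and TGFB2 at −1.2 on the log2 scale, a growth factor for macrophages and a transforming growth factor.

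Receptors for cytokines gave 4 called higher and 1 called lower of 30 (16.7%, against 10.5% of all genes tested). Their median of 0.12 turned to −0.01 when computed from TPM, the length-scaled values. csf2rb (ENSDARG00000076586), the beta chain shared by receptors of several colony-stimulating factors, rose from 3.55 and 3.32 CPM to 17.8 and 14.3 CPM (log2 fold change 2.22 ± 0.18 SE, edgeR adjusted p = 1.3e-13). il10ra (ENSDARG00000100383), a chain of the receptor for anti-inflammatory interleukin 10, rose from 3.62 and 4.6 CPM to 13.7 and 15.5 CPM (log2 fold change 1.83 ± 0.18 SE, edgeR adjusted p = 2.2e-11). tnfrsf9a (ENSDARG00000060498), a costimulatory receptor, rose from 5.22 and 4.46 CPM to 13.1 and 12.6 CPM (log2 fold change 1.4 ± 0.18 SE, edgeR adjusted p = 1.5e-08). Both mutant libraries were above both WT libraries for the 3 receptors, as for 29.7% of all genes tested. The receptor called lower was lifra at −2.23, which binds leukemia inhibitory factor. The leukocyte sums given above moved with these genes, and their part in the differences was not tested.

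Of 39 chemokines, 7 were called higher and 1 lower, against 6.88% and 3.67% of all genes tested, with a median of 0.78. Without replicate 2 of thraa+/- 5 were called higher and the median was 0.44, and it was 0.29 on log2(TPM + 1). ccl34b.8 (ENSDARG00000093098) had 0.835 and 1.70 CPM in WT and 11.4 and 13.2 CPM in mutants (log2 fold change 3.27 ± 0.26 SE, edgeR adjusted p = 5.1e-14). ccl34a.3 (ENSDARG00000094983) had 1.11 and 1.34 CPM in WT and 7.36 and 5.89 CPM in mutants (log2 fold change 2.43 ± 0.30 SE, edgeR adjusted p = 9.7e-09). ccl34a.4 (ENSDARG00000090873) had 74 and 83.8 CPM in WT and 157 and 205 CPM in mutants (log2 fold change 1.2 ± 0.12 SE, edgeR adjusted p = 2.6e-07). These ligands belong to CC chemokine clusters of fish with near copies, between which the counting may split reads. cxcl8a (ENSDARG00000104795), the interleukin-8 homologue that draws neutrophils, stayed under the fold threshold with 7.37 and 8.35 CPM in WT and 10.6 and 15.9 CPM in mutants (log2 fold change 0.75 ± 0.21 SE, edgeR adjusted p = 0.0050). The ligand called lower was CXCL14, at −1.0.

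Of 21 chemokine receptors, 7 were called higher and 1 lower (38.1%, against 10.5% of all genes tested), and members of the same family went opposite ways. cxcr3.2 (ENSDARG00000041041), a receptor that guides zebrafish macrophages to CXCL11-type ligands, rose from 8.56 and 9.48 CPM to 28.8 and 30.6 CPM (log2 fold change 1.72 ± 0.13 SE, edgeR adjusted p = 4.1e-14). The gene the files name CXCR3 (ENSDARG00000007358) fell from 19.8 and 18.2 CPM to 2.88 and 1.91 CPM, 7.88-fold lower (log2 fold change −2.98 ± 0.29 SE, edgeR adjusted p = 3.4e-11). Neither gene overlapped between the genotypes. CXCR3 was called neither without injury (log2 fold change 0.09 ± 0.63 SE, edgeR adjusted p = 0.95) nor at 1 dpi (−0.22, edgeR adjusted p = 0.80). ccr12b.2 (ENSDARG00000026417), a CC receptor, rose from 5.08 and 4.1 CPM to 18.7 and 20.0 CPM (log2 fold change 2.07 ± 0.20 SE, edgeR adjusted p = 3.8e-11). The leukocyte sums moved with the chemokines and their receptors, and their part was not tested.

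In the NF-kB pathway, which carries signals from interleukin 1, tumor necrosis factor and Toll-like receptors to the nucleus, 3 of 34 genes were called higher and 0 lower, while 18 passed the adjusted p alone and all of these were higher, against 6.88% called higher and 17.1% higher by the adjusted p alone over all genes tested. Their median was 0.55. nfkbiab (ENSDARG00000007693), which encodes an inhibitor that NF-kB itself induces, had 82.3 and 101 CPM in WT and 197 and 246 CPM in mutants (log2 fold change 1.27 ± 0.08 SE, edgeR adjusted p = 2.1e-16). It was also higher in mutants without injury, by 1.00 on the log2 scale (edgeR adjusted p = 1.7e-13), and the difference between the times was not called (0.27, edgeR adjusted p = 0.075). The other copy of the inhibitor, nfkbiaa (ENSDARG00000005481), moved from 60.3 and 65.5 CPM to 71.3 and 99.6 CPM (log2 fold change 0.44 ± 0.10 SE, edgeR adjusted p = 0.00045). tnip2 (ENSDARG00000074501), a further brake on the pathway, rose from 5.43 and 3.82 CPM to 12.5 and 13.6 CPM (log2 fold change 1.49 ± 0.22 SE, edgeR adjusted p = 6.4e-07). Of the NF-kB subunits, nfkb2 (ENSDARG00000038687) had 38.0 and 41.2 CPM in WT and 74.6 and 75.4 CPM in mutants (log2 fold change 0.92 ± 0.09 SE, edgeR adjusted p = 1.2e-11). nfkb1 (ENSDARG00000105261) lay under 1 CPM in all 4 libraries and overlapped (log2 fold change −0.08 ± 0.82 SE, edgeR adjusted p = 0.97). Leukocytes use this pathway and their markers moved with it, and their part was not tested.

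The JAK-STAT pathway, which cytokine receptors use, had 1 gene called higher and 1 lower of 24 (8.33%, against 10.5% of all genes tested). PTPN6 (ENSDARG00000089043), a phosphatase of blood cells that damps this signalling, rose from 25.6 and 26.8 CPM to 70.8 and 81.4 CPM (log2 fold change 1.54 ± 0.09 SE, edgeR adjusted p = 2.8e-17). STAT4 (ENSDARG00000028731) fell from 82.6 and 71.2 CPM to 38.7 and 37.4 CPM (log2 fold change −1.02 ± 0.08 SE, edgeR adjusted p = 2.2e-13), and this passed −1 in neither the fit without replicate 1 of WT (−0.92) nor that without replicate 2 of thraa+/- (−0.99). Among 32 genes of AP-1 and other immediate early responses, 2 were called higher and 0 lower (6.25%). CEBPB (ENSDARG00000042725), a transcription factor of the acute phase and of myeloid cells, had 162 and 176 CPM in WT and 374 and 472 CPM in mutants (log2 fold change 1.32 ± 0.08 SE, edgeR adjusted p = 2.4e-18). The other was egr2a, at 1.02.

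Metalloproteinases cut matrix and are held by inhibitors. Of 34 such genes, 4 were called higher and 2 lower, against 6.88% and 3.67% of all genes tested, and 22 had a negative log2 fold change, with a median of −0.14. With replicates 1 alone, 4 were higher and 0 lower. Together the 34 genes summed to 855 and 858 CPM in WT and 1479 and 1434 CPM in mutants. mmp13a (ENSDARG00000012395), a collagenase, had 26.4 and 27.6 CPM in WT and 143 and 164 CPM in mutants, 5.68-fold higher (log2 fold change 2.51 ± 0.14 SE, edgeR adjusted p = 3.5e-17). MMP9 (ENSDARG00000042816), a gelatinase of neutrophils, macrophages and wound tissue, had 64.7 and 68.5 CPM in WT and 204 and 215 CPM in mutants (log2 fold change 1.65 ± 0.08 SE, edgeR adjusted p = 3.1e-20). Both genes were apart from WT in both mutant libraries. At 1 dpi the differences were 1.36 for mmp13a and 0.66 for MMP9, and that of mmp13a was smaller than at 8 hpi by 1.15 (edgeR adjusted p = 9.9e-05). mmp13b (ENSDARG00000100794) had 1 count in all in WT and stood at 1.14 and 0.883 CPM in mutants, a ratio of 29.0 with a 95% counting interval from 4.81 to 1180. TIMP4 (ENSDARG00000102617), an inhibitor of these proteases, also rose, from 3.96 and 2.76 CPM to 17.9 and 23.3 CPM (log2 fold change 2.61 ± 0.23 SE, edgeR adjusted p = 1.1e-12). The leukocyte sums moved with MMP9 and mmp13a, and their part was not tested. The 2 called lower were ADAMTS15 at −1.06 and MMP21 at −2.20.

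Of 38 collagens, 3 were called higher and 4 lower (18.4%, against 10.5% of all genes tested). Their median of 0.05 became 0.2 without replicate 2 of thraa+/-. Of 28 genes of provisional matrix and adhesion 3 were called higher and 0 lower (10.7%). COL12A1 (ENSDARG00000019601), a collagen that binds fibril surfaces, had 1.67 and 2.12 CPM in WT and 6.76 and 4.34 CPM in mutants (log2 fold change 1.56 ± 0.21 SE, edgeR adjusted p = 7.5e-08). COL10A1 (ENSDARG00000101535), a short-chain collagen, had 0.696 and 0.0707 CPM in WT and 3.55 and 4.27 CPM in mutants (log2 fold change 3.31 ± 0.53 SE, edgeR adjusted p = 3.3e-06). vcanb (ENSDARG00000009401), a proteoglycan of provisional matrix, had 14.1 and 10.3 CPM in WT and 28.3 and 26.1 CPM in mutants (log2 fold change 1.16 ± 0.12 SE, edgeR adjusted p = 6.0e-11), which became 0.95 without replicate 2 of WT.

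Complement genes moved in both directions, and 64.7% of those measured were called. Over all genes tested 10.5% were called, 6.88% higher and 3.67% lower. Of 17 measured, 7 were called higher and 4 lower, and without replicate 2 of thraa+/- 5 were higher and 4 lower. The chains of C1q, the recognition unit of the classical pathway made largely by macrophages, were higher, and c1qc (ENSDARG00000095627) went from 17.9 and 18.5 CPM to 45.1 and 64.9 CPM (log2 fold change 1.59 ± 0.10 SE, edgeR adjusted p = 3.0e-15). The other 4 called higher were c3a.4, the receptor c5ar1 and the regulators cfh and cfhl2, between 1.13 and 2.07 on the log2 scale. Besides 3 components named next, cfd, the factor D of the alternative pathway, was called lower at −1.28. c3a.1 (ENSDARG00000012694), a copy of the central component C3, fell from 70.8 and 66.8 CPM to 17.9 and 14.3 CPM (log2 fold change −2.09 ± 0.11 SE, edgeR adjusted p = 3.4e-19). c4b (ENSDARG00000038424) fell from 46.1 and 50.0 CPM to 16.4 and 13.7 CPM (log2 fold change −1.67 ± 0.09 SE, edgeR adjusted p = 1.2e-19), and c7b (ENSDARG00000057121), of the membrane attack complex, from 94.7 and 91.8 CPM to 32.4 and 34.7 CPM (log2 fold change −1.47 ± 0.12 SE, edgeR adjusted p = 9.8e-14). The groups did not overlap for c1qc, c3a.1, c4b or c7b, as for 57.3% of all genes tested. c3a.1 and c4b were also lower in mutants without injury, by 1.79 and 1.69 on the log2 scale, and neither difference between the times was called (−0.30, edgeR adjusted p = 0.31, and 0.02, edgeR adjusted p = 0.96), whereas c7b was not called without injury (−0.12, edgeR adjusted p = 0.78). Of 7 markers of liver, a tissue that makes much plasma complement, tfa and ambp fell with the lower components and fga rose. The list summed to 130 and 147 CPM in WT and 41.1 and 48.6 CPM in mutants, of which tfa alone made 126 and 142 CPM and 38.9 and 46.9 CPM, while fabp10a, apoa1a, apoa1b and apoa2 held no more than 3 counts in any library, and the leukocyte sums moved with the C1q chains. The part of either was not tested.

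Of 19 genes of antigen presentation, 1 was called higher and 1 lower, which is 10.5% as over all genes tested, and without replicate 2 of thraa+/- 2 were higher and 3 lower. tapbpl (ENSDARG00000058351), a helper of MHC class I loading, rose from 3.69 and 4.67 CPM to 9.64 and 11.3 CPM (log2 fold change 1.32 ± 0.19 SE, edgeR adjusted p = 5.0e-07). mhc2dab (ENSDARG00000079105), a chain of MHC class II, had 3.34 and 4.1 CPM in WT and 0 counts in both mutant libraries, at least 35.4-fold lower against a floor of 3 counts over the group. At other times both genotypes held more of it. Without injury it stood at 76 and 68.2 CPM in WT and 21.3 and 21.8 CPM in mutants. At 1 dpi it stood at 67.7 and 64.1 CPM in WT and 60.9 and 58 CPM in mutants. The cause of the low values at 8 hpi was not tested. MHC genes differ between haplotypes of zebrafish, and reads of other haplotypes than the reference can be lost. Of 28 interferon-stimulated genes, 3 were called higher and 1 lower (14.3%). isg15 (ENSDARG00000086374), a ubiquitin-like protein, fell from 23.7 and 27.2 CPM to 6.63 and 8.02 CPM (log2 fold change −1.80 ± 0.13 SE, edgeR adjusted p = 6.2e-15), and it was lower in mutants without injury (−2.49) and at 1 dpi (−1.91) too. mxc (ENSDARG00000024789), an antiviral GTPase, rose from 0.696 and 1.27 CPM to 3.48 and 4.49 CPM (log2 fold change 2.01 ± 0.36 SE, edgeR adjusted p = 2.5e-05).

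Of 42 cell cycle genes, 16 were called higher and 0 lower, against 6.88% higher over all genes tested, and 12 had a negative log2 fold change. The median was 0.61, or 0.19 on log2(TPM + 1), and with replicates 1 alone 10 were called higher. RRM2 (ENSDARG00000020711), a subunit of ribonucleotide reductase, rose from 4.87 and 4.39 CPM to 16.9 and 20.1 CPM (log2 fold change 1.99 ± 0.14 SE, edgeR adjusted p = 9.6e-16). TOP2A (ENSDARG00000024488), a topoisomerase of dividing cells, rose from 0.696 and 1.06 CPM to 4.75 and 5.81 CPM (log2 fold change 2.58 ± 0.27 SE, edgeR adjusted p = 3.0e-10). CDK1 (ENSDARG00000087554), the kinase that drives mitosis, rose from 1.18 and 0.920 CPM to 4.49 and 5.08 CPM (log2 fold change 2.17 ± 0.26 SE, edgeR adjusted p = 4.9e-09). PCNA (ENSDARG00000054155), the replication clamp, overlapped with 41.0 and 38.6 CPM in WT and 34 and 40.0 CPM in mutants (log2 fold change −0.11 ± 0.11 SE, edgeR adjusted p = 0.49). Of the 42 genes, 0 were called higher and 2 lower without injury, against 5.68% and 5.79% of all genes tested. At 1 dpi 0 were called, against 7.59%. The difference of the effects was called upward for 13 against the uninjured state and for 12 against 1 dpi. The shares of all genes tested were 8.11% and 5.22%. None of the MCM helicase genes, which license replication, was called. These libraries do not show in which cells the genes were expressed, and the leukocyte sums moved with them, in a part that was not tested.

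Ribosome biogenesis stood in contrast, with small and uniform differences. None of 63 genes reached the fold threshold, while 52 passed the adjusted p alone, all lower in mutants, against 13.4% lower over all genes tested. The median was −0.51, from 0.18 without injury and −0.21 at 1 dpi. The sum of these genes was 4098 and 4280 CPM in WT and 2723 and 3104 CPM in mutants at 8 hpi, where it was highest in both genotypes, and 1456 and 1471 CPM in WT and 1591 and 1608 CPM in mutants without injury. npm1a (ENSDARG00000014329), the nucleolar protein nucleophosmin, had 414 and 446 CPM in WT and 222 and 266 CPM in mutants (log2 fold change −0.82 ± 0.07 SE, edgeR adjusted p = 1.4e-12). GNL3 (ENSDARG00000006219), nucleostemin, had 104 and 112 CPM in WT and 54.4 and 69.8 CPM in mutants (log2 fold change −0.80 ± 0.09 SE, edgeR adjusted p = 4.0e-10), and ncl (ENSDARG00000002710), nucleolin, had 691 and 720 CPM in WT and 502 and 558 CPM in mutants (−0.41, edgeR adjusted p = 4.9e-06). Both mutant libraries were below both WT libraries for the 3 genes, as for 27.6% of all genes tested. GNL3 was also lower in mutants without injury (−0.60, edgeR adjusted p = 2.9e-05). Its difference between the times did not pass the test (−0.20, edgeR adjusted p = 0.31). The differences of npm1a (−0.63, edgeR adjusted p = 1e-05) and ncl (−0.67, edgeR adjusted p = 6.7e-07) passed the adjusted p alone. Cytosolic ribosomal proteins gave 0 calls of 79 and a median of −0.08, which became −0.38 without replicate 2 of thraa+/-.

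Of 155 genes of oxidative phosphorylation, 5 were called higher and 1 lower (3.87%, against 10.5% of all genes tested). With the adjusted p alone 51 were higher and 7 lower, against 17.1% and 13.4% of all genes tested. The median of 0.18 became −0.03 without replicate 2 of thraa+/-. Of 13 respiratory chain genes of the mitochondrial genome, 0 were called and 7 were higher with the adjusted p alone. Their median was 0.2, or 0.24 without replicate 2 of thraa+/-. None of 20 genes of the TCA cycle was called, and of 36 genes of fatty acid oxidation 0 were higher and 1, ACACB at −1.07, was lower. Of 39 genes of glycolysis, 2 were called higher and 1 lower (7.69%). PKM (ENSDARG00000099860), a pyruvate kinase, had 2.23 and 2.62 CPM in WT and 44.6 and 45.3 CPM in mutants, 18.5-fold higher (log2 fold change 4.21 ± 0.14 SE, edgeR adjusted p = 1.6e-25). It was also higher without injury (2.77) and at 1 dpi (3.97), so the difference was present before injury. TKT (ENSDARG00000029689), of the pentose phosphate pathway, fell from 1.25 and 1.70 CPM to 0.402 and 0.368 CPM (log2 fold change −1.91 ± 0.55 SE, edgeR adjusted p = 0.0056). The 6 measured genes of that pathway, 4 with positive and 2 with negative values, had a median of 0.5, or 0.25 without replicate 2 of thraa+/-. Of the 6 genes 1 was called higher and 1, TKT, lower (33.3%, against 10.5% of all genes tested). Together they summed to 220 and 239 CPM in WT and 348 and 412 CPM in mutants. Of 15 hypoxia-inducible factors and regulators 1, ARNT2 at 1.01, was called higher (6.67%). Of 24 hypoxia targets 1 was called higher, slc2a3a at 1.57, and 2 were lower (12.5%). PDK2 (ENSDARG00000059054), a kinase that inhibits pyruvate dehydrogenase, fell from 205 and 219 CPM to 83.7 and 91.4 CPM (log2 fold change −1.28 ± 0.07 SE, edgeR adjusted p = 3.7e-19). SLC2A1 (ENSDARG00000001437), a glucose transporter, had 1.11 and 0.920 CPM in WT and 1 count in all in mutants, a ratio of 29.0 with a 95% counting interval from 4.81 to 1180.

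Stress responses gave mixed values. Of 25 genes of endoplasmic reticulum and amino acid stress, 4 were called higher and 0 lower (16%, against 10.5% of all genes tested). Of these 4 genes, 3 belong to amino acid supply and control. slc3a2a (ENSDARG00000036427), the heavy chain of amino acid transporters, rose from 11.5 and 12.5 CPM to 36.3 and 36.8 CPM (log2 fold change 1.60 ± 0.11 SE, edgeR adjusted p = 4.4e-16). ASNS (ENSDARG00000016375), asparagine synthetase, rose from a mean of 6.61 ± 3.05 CPM (SD, n = 2) to 18.9 ± 5.33 CPM (SD, n = 2), with no overlap (log2 fold change 1.52 ± 0.20 SE, edgeR adjusted p = 4.0e-08). The third was slc7a11, a cystine transporter, at 1.68. DDIT4 (ENSDARG00000037618), a brake on mTOR, had 25.9 and 26.5 CPM in WT and 50.8 and 59.4 CPM in mutants (log2 fold change 1.07 ± 0.10 SE, edgeR adjusted p = 2.4e-12), which became 0.96 without replicate 2 of thraa+/-. DDIT4 was higher in mutants by more without injury (1.73, edgeR adjusted p = 1.3e-18). Of 80 heat shock proteins and DnaJ cochaperones, 2 were called higher and 1 lower (3.75%). With the adjusted p alone 10 were higher and 24 lower, against 17.1% and 13.4% of all genes tested. hspb9l (ENSDARG00000002204), a small heat shock protein, had 3480 and 3880 CPM in WT and 1800 and 2270 CPM in mutants (log2 fold change −0.86 ± 0.08 SE, edgeR adjusted p = 1.4e-12).

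**Figure D4:**
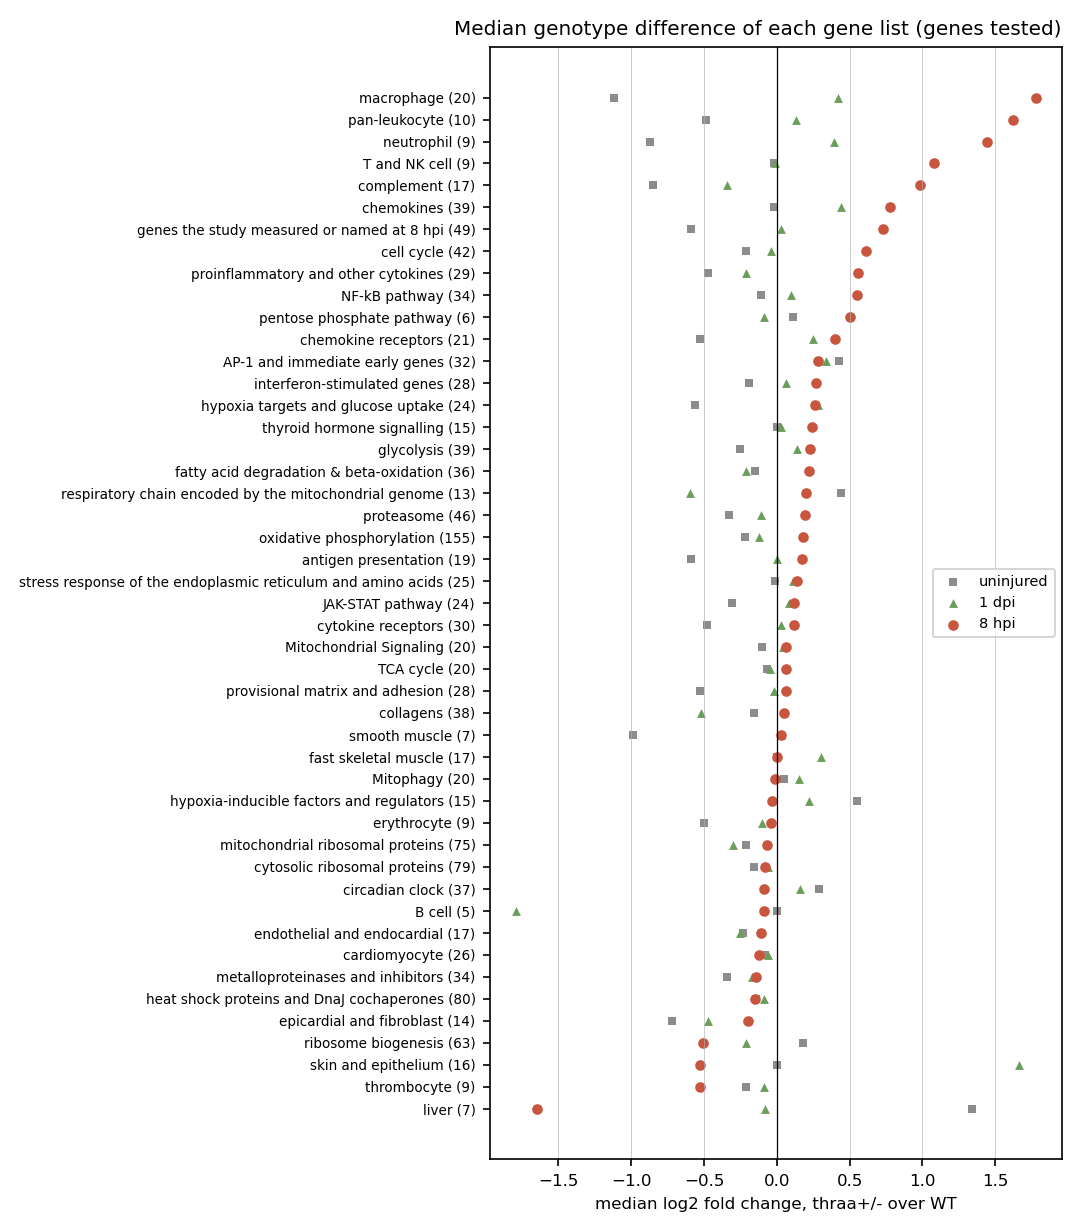
Median log2 fold change between thraa+/- mutants and WT of 47 gene lists, with the number of genes tested in brackets, at 8 hpi (red circles), without injury (grey squares) and at 1 dpi (green triangles), ordered by the value at 8 hpi. Macrophage, shared leukocyte and neutrophil lists are at the top, with 1.78, 1.62 and 1.44 at 8 hpi and −1.12, −0.49 and −0.87 without injury, and liver markers are at the bottom, with −1.65 over 7 genes, a value that became −0.76 without replicate 1 of WT and 0 under DESeq2.

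Of 26 cardiomyocyte genes, 1 was called higher and 1 lower (7.69%, against 10.5% of all genes tested), with a median of −0.12. The symbol MYH7 (ENSDARG00000079782), a ventricular myosin heavy chain, had 22300 and 22000 CPM in WT and 15500 and 18100 CPM in mutants (log2 fold change −0.40 ± 0.07 SE, edgeR adjusted p = 6.0e-06). nppb (ENSDARG00000052958), a natriuretic peptide of strained myocardium, had 1260 and 1370 CPM in WT and 1460 and 1890 CPM in mutants (log2 fold change 0.35 ± 0.08 SE, edgeR adjusted p = 0.00031). Without injury nppb was far lower in mutants, at −2.88, and the difference between the times of 3.23 was called (edgeR adjusted p = 5.4e-25). The gene called lower was myh6 (ENSDARG00000090637), an atrial myosin in zebrafish, with 6.82 and 4.46 CPM in WT and 1.14 and 0.809 CPM in mutants (log2 fold change −2.51 ± 0.27 SE, edgeR adjusted p = 5.5e-10). The gene called higher, a TNNT2 copy (ENSDARG00000100694) for a troponin T, stood at 1.25 and 1.06 CPM in WT and 3.28 and 2.35 CPM in mutants (log2 fold change 1.28 ± 0.37 SE, edgeR adjusted p = 0.0061) and was lost without replicate 2 of WT.

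Of 17 endothelial and endocardial genes, 2 were called higher and 1 lower (17.6%), and without replicate 2 of thraa+/- 1 was higher and 0 lower. CLDN5 (ENSDARG00000014059), a claudin of tight junctions, rose from 37.6 and 38.9 CPM to 112 and 126 CPM (log2 fold change 1.64 ± 0.09 SE, edgeR adjusted p = 3.5e-19), while it was lower in mutants without injury (−1.18, edgeR adjusted p = 5.6e-12). plvapb (ENSDARG00000045003), of fenestrated endothelium, had 9.88 and 9.76 CPM in WT and 18.3 and 22.4 CPM in mutants (log2 fold change 1.05 ± 0.14 SE, edgeR adjusted p = 5.4e-08), and fell to 0.90 without replicate 2 of thraa+/-. The gene called lower was a copy of NOTCH1 at −1.23. Among all genes tested 10.5% were called, 6.88% higher and 3.67% lower. Of 14 epicardial and fibroblast genes, 1, LUM at 1.55, was called higher and 2 lower (21.4%), and with replicates 1 alone 0 were higher. PDGFRA (ENSDARG00000070494), a growth factor receptor of fibroblasts and epicardium, fell from 25.5 and 24.3 CPM to 11.1 and 13.4 CPM (log2 fold change −1.03 ± 0.12 SE, edgeR adjusted p = 3.2e-09), or −0.89 without replicate 1 of thraa+/-. TBX18 (ENSDARG00000036930), an epicardial transcription factor, fell from 7.44 and 5.73 CPM to 2.95 and 1.99 CPM (log2 fold change −1.40 ± 0.23 SE, edgeR adjusted p = 5.6e-06). DCN (ENSDARG00000012066), the fibroblast proteoglycan decorin, had 91.5 and 88.3 CPM in WT and 50.3 and 44.4 CPM in mutants (log2 fold change −0.92 ± 0.08 SE, edgeR adjusted p = 1.8e-13). None of 7 smooth muscle genes was called.

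Markers of tissues around the resected apex and of blood gave further values. Their counts stand against 6.88% higher and 3.67% lower of all genes tested at 8 hpi. Of 9 erythrocyte genes 1 was called lower, hbaa2 (ENSDARG00000069735), an alpha globin, with 261 and 288 CPM in WT and 58.5 and 75.6 CPM in mutants (log2 fold change −2.04 ± 0.08 SE, edgeR adjusted p = 4.7e-23). It was lower in mutants by more without injury (−3.75), and lower at 1 dpi too (−1.73). The list summed to 4818 and 5350 CPM in WT and 4709 and 6087 CPM in mutants, so the groups overlapped, and hbaa2 has near copies in the globin cluster. Of 9 thrombocyte genes 1 was called higher, f13a1b (ENSDARG00000036893), a chain of coagulation factor XIII that macrophages also make, with 29.1 and 28.5 CPM in WT and 70.9 and 72.9 CPM in mutants (log2 fold change 1.32 ± 0.10 SE, edgeR adjusted p = 9.5e-15). The median of the thrombocyte list was −0.53. None of 16 skin and epithelial genes was called, and they summed to 2607 and 2735 CPM in WT and 1704 and 1993 CPM in mutants. krt4 (ENSDARG00000017624), a keratin of surface epithelium, had 541 and 573 CPM in WT and 280 and 321 CPM in mutants (log2 fold change −0.89 ± 0.07 SE, edgeR adjusted p = 5.2e-14). At 1 dpi, 12 of these 16 were called higher in mutants, against 4.9% of all genes tested. Of 7 liver genes, 1 was called higher, fga at 2.67, and 2 lower. tfa (ENSDARG00000016771), transferrin, fell from 126 and 142 CPM to 38.9 and 46.9 CPM (log2 fold change −1.65 ± 0.08 SE, edgeR adjusted p = 4.1e-21), and it was lower without injury (−3.48) and at 1 dpi (−1.71). ambp (ENSDARG00000004296), a plasma protein precursor, fell from 2.99 and 4.53 CPM to 0.134 and 0.147 CPM (log2 fold change −4.67 ± 0.72 SE, edgeR adjusted p = 1.5e-06).

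The largest differences, among called genes with a symbol, at least 1 CPM on average and no overlap, were of genes at or near 0 in a genotype. Lower in mutants, FIBIN (ENSDARG00000039949), a secreted protein of fin buds in zebrafish, had 17.4 and 15.2 CPM in WT and 0 counts in both mutant libraries, at least 155-fold lower. The mutants held 13.7 and 14.4 CPM of FIBIN without injury and 12 and 11.7 CPM at 1 dpi, and of the 6 times its counts were missing only at 8 hpi. The uncharacterised genes si:ch211-190k17.19, si:ch1073-340i21.3 and si:ch211-216b21.1 were at least 78.3-fold, 37.7-fold and 21.3-fold lower by the same floor. mhc1zka, an MHC class I gene, was at least 26.4-fold lower and slc2a11a, a sugar transporter gene, at least 23.0-fold lower, and mhc2dab was described above. Without injury mhc1zka stood at 7 and 6.35 CPM in WT and 9.77 and 6.62 CPM in mutants. At 1 dpi si:ch1073-340i21.3 stood at 1.7 and 1.16 CPM in WT and 18.4 and 13.6 CPM in mutants. lgals4 (ENSDARG00000104016), a galectin, had 7.09 and 7.43 CPM in WT and 1 count in all in mutants, a ratio of 207 with a counting interval from 36.8 to 8220.

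Higher in mutants with 0 counts in both WT libraries were a gene of the MFAP4 symbol (ENSDARG00000038683), at 2.48 and 2.5 CPM and at least 23.7-fold, si:ch211-187g4.1 (at least 22.2-fold), si:dkey-29m1.1 (at least 22.1-fold), nlrc8 (at least 21-fold), si:dkey-242h9.3 (at least 20.6-fold) and si:dkey-230i18.2 (at least 19-fold). nlrc8 belongs to a large family of NOD-like receptors of fish, whose copies share sequence. A PCNP gene (ENSDARG00000116774), for a nuclear protein, had 1 count in WT and 4.49 and 5.22 CPM in mutants, a ratio of 138 with a counting interval from 24.3 to 5490. si:dkey-238k10.1 (ENSDARG00000099384) had 3 counts in WT and 12.2 and 11.7 CPM in mutants, a ratio of 114 with an interval from 38.6 to 554. The last 2 were also higher in mutants without injury, by 7.28 and 6.46 on the log2 scale, and at 1 dpi, by 6.67 and 6.20. The counts cannot tell a change of expression from a difference of sequence or gene content between the fish of each genotype.

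Of the 49 genes that the study itself measured or named at this time, 13 were called higher and 1 lower, against 6.88% and 3.67% of all genes tested. With the adjusted p alone 38 were higher, against 17.1%. The median of the 49 genes was 0.73, from −0.59 without injury. There 2 were called higher and 14 lower, against 5.68% and 5.79% of all genes tested. The study chose them on these samples, so their direction is not independent evidence.

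Most genes called at 8 hpi were not called in the same direction without injury or at 1 dpi, in comparisons that share no library with it. Of the 1227 genes higher at 8 hpi, 205 (16.7%, and 20.2% of those higher without injury) were higher in uninjured hearts too, and 168 (13.7%) were called lower there. At 1 dpi, 228 (18.6%, and 26.1% of those higher at 1 dpi) were higher and 26 (2.12%) lower. Of the 654 lower genes, 130 (19.9%, and 12.6% of those lower without injury) were lower in uninjured hearts and 31 (4.74%) higher, and at 1 dpi 99 (15.1%, and 20.6%) were lower and 53 (8.10%) higher. Called higher at 8 hpi and at no other time were 505 genes, and 286 were called lower only then by the same rule. Higher at all 6 times were 45 genes and lower at all 6 times 8. Beside the 10.5% called at 8 hpi, the genotypes differed for 11.5% of genes without injury (5.68% higher and 5.79% lower), for 7.59% at 1 dpi (4.9% and 2.69%) and for 8.57% at 3 dpi (5.23% and 3.34%). At 7 dpi the share was 6.25% (2.94% higher and 3.31% lower) and at 15 dpi 7.85% (4.12% and 3.74%). Tested directly, the genotype effect at 8 hpi differed from that without injury for 2507 genes (14.1%), 1447 upward (8.11%) and 1060 downward (5.94%), and from that at 1 dpi for 1657 genes (9.29%), 931 upward (5.22%) and 726 downward (4.07%).

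The course of single genes shows how brief some differences were. lyz was lower in mutants without injury (log2 fold change −2.61 ± 0.37 SE, edgeR adjusted p = 4.9e-06), higher at 8 hpi (3.48) and not called at 1 dpi (0.11, edgeR adjusted p = 0.79). LCP1 went from −0.57 without injury through 1.86 at 8 hpi to 0.22 at 1 dpi. grna.1, by contrast, was −1.71 without injury, 1.79 at 8 hpi and 1.57 at 1 dpi, and the last 2 values were not told apart (difference 0.22, edgeR adjusted p = 0.17).

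**Figure D5:**
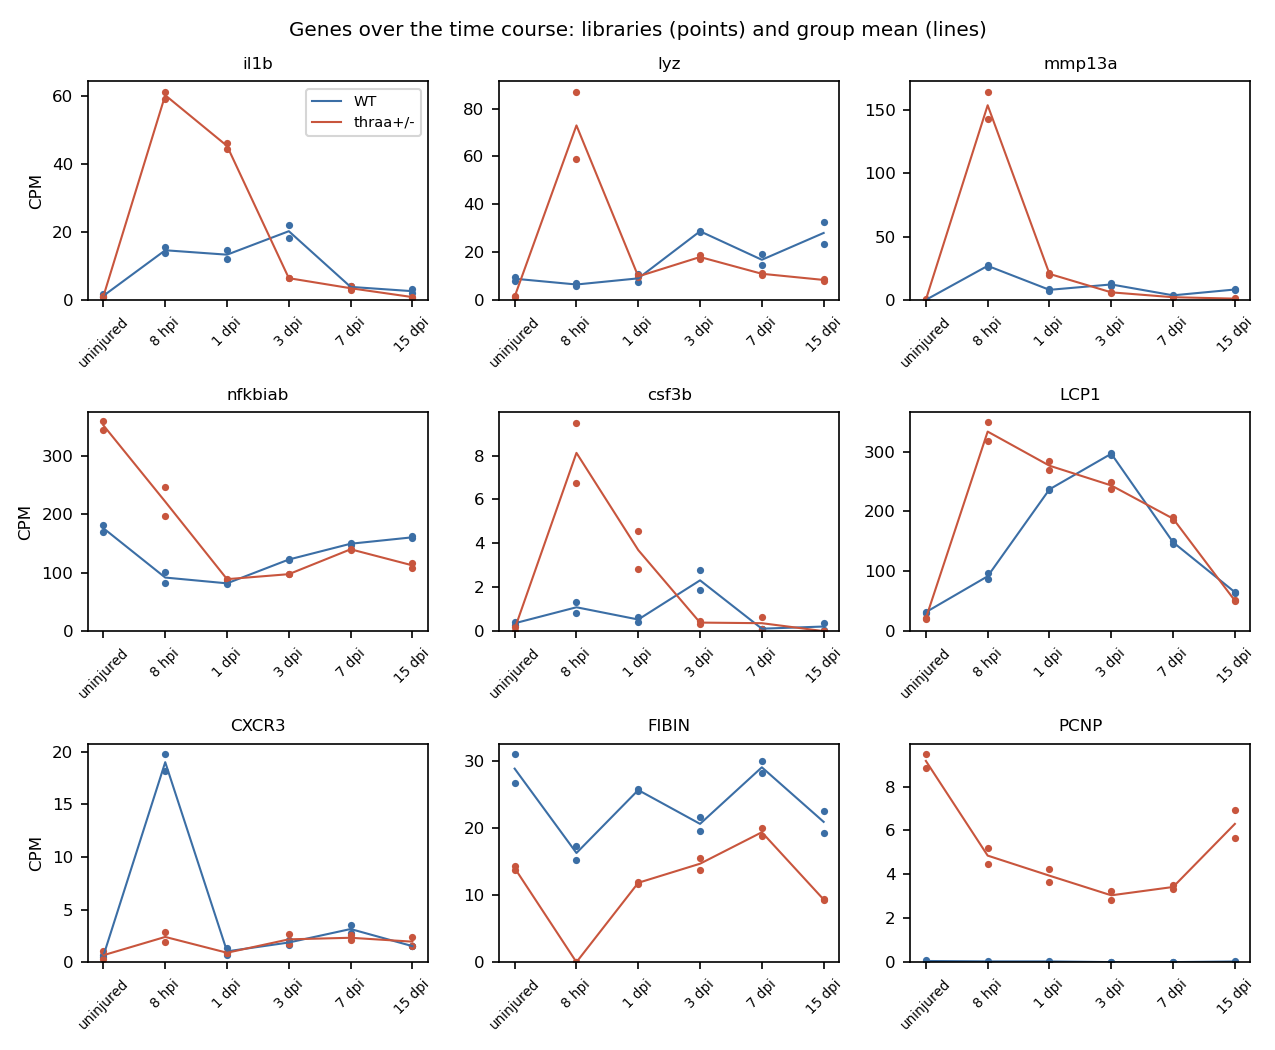
CPM of 9 genes over the 6 sampling times, with WT in blue and thraa+/- in red, points for single libraries and lines through group means, each panel on its own linear axis from 0. lyz, mmp13a and csf3b peak at 8 hpi in mutants, CXCR3 (ENSDARG00000007358) peaks at 19.8 and 18.2 CPM in WT at 8 hpi only, FIBIN (ENSDARG00000039949) is at 0 in mutants at 8 hpi only, and PCNP (ENSDARG00000116774) is near 0 in WT at every time.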

How the data were processed

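RNA from pooled injured zones was sequenced on a NovaSeq as paired reads of total RNA. Per the labels and the study's methods, the authors trimmed reads with Trim Galore 0.6.10, aligned them to GRCz11 with STAR 2.7.9 and deposited RSEM 1.3.3 expected counts, which are estimated and apportion reads shared between copies, for 32520 Ensembl genes. The authors also deposited TPM values, scaled within each library for length and depth and used here only as an alternative. The whole-heart tables were not used here. Groups came from the sample labels, and 24 libraries in 12 groups of 2 entered the fit.

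Expected counts were rounded, and tested in R 4.3.3 with edgeR 4.0.16 (filterByExpr, TMM, robust quasi-likelihood fit of all 12 groups, Benjamini-Hochberg adjustment over 17837 genes, two-sided). The genotype contrast at 8 hpi and its differences from those without injury and at 1 dpi were computed. The SE values are approximate and do not hold for genes at or near 0 in a group. For ambp the difference from 1 dpi had an SE of 0.05, against 0.72 and 1.04 for the effects at 8 hpi and 1 dpi. Alternatives were DESeq2 1.42.0, limma 3.58.1 on log2(TPM + 1) and log2(TPM + 0.1), total counts, other filters, only the groups compared, a replicate block and leaving out libraries. On simulated counts of 17837 genes at this comparison, 82 of 100 genes changed 2-fold passed the adjusted p and 44 were called. Of 100 genes changed 4-fold 94 were called, and of 17637 unchanged genes 6 were called. The simulation gave all groups the same spread per gene, without the larger spread at 8 hpi. Its changed genes were drawn only from those above a minimum mean count at 8 hpi. The rates for the real libraries can therefore be worse.

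Symbols came from a table of gene names, and upper-case symbols stand for genes for which it holds no zebrafish form. A list name without a match under any symbol was left out of its list. Members and lists were chosen with earlier results of these data known. Genes are named if called, at most 4 a list by lowest adjusted p, with the best known members whatever their p, and the 8 higher and 8 lower called genes of largest fold with a symbol, at least 1 CPM on average and no overlap. Further genes given with a log2 value alone were chosen after their values were seen. Folds against a group at 0 use a floor of 3 counts over the group, and groups with 1 to 3 counts have exact binomial 95% intervals, both covering counting error only. 1 gene that the naming rule selects is not reported here.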

Additional observations from a re-analysis of the deposited data

Results flagged for a closer look

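Each result here stands out because the genotype effect at 8 hpi differed from that without injury or at 1 dpi in the test of the difference itself. The difference was called for 2507 genes against the uninjured state and for 1657 against 1 dpi. All values below are log2 differences, the genotype effect at 8 hpi minus that without injury, each with an edgeR adjusted p under 0.05.

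Leukocyte genes differed upward. Among neutrophil and macrophage genes the difference was 6.09 for lyz, 2.92 for npsn, 2.53 for NCF1, 3.50 for grna.1, 2.91 for spi1a, 3.11 for SPI1, 1.77 for LGMN and 1.84 for csf1ra. Among shared markers it was 2.43 for LCP1, 2.33 for CORO1A, 2.34 for ARPC1B and 1.41 for ptprc. In lymphocyte and thrombocyte lists it was 7.12 for nkl.2, 1.14 for CCR9 and 2.05 for f13a1b.

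Signalling genes differed mostly upward. Cytokines gave 2.19 for il1b, 7.29 for il11a, 4.65 for csf3b and 3.81 for tnfb, and their receptors 2.79 for csf2rb, 1.91 for il10ra and 2.48 for tnfrsf9a. Chemokine genes gave 4.05 for ccl34a.4 and 2.89 for cxcr3.2, and −3.07 for CXCR3 (ENSDARG00000007358). Pathway genes gave 3.68 for tnip2, 1.84 for nfkbiaa, 1.78 for nfkb2, 1.17 for PTPN6, −1.06 for STAT4, 2.16 for CEBPB and 1.75 for rxrga.

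Matrix, complement and presentation genes gave 2.24 for MMP9, 3.71 for TIMP4 (ENSDARG00000102617), 6.30 for COL12A1 (ENSDARG00000019601), 1.23 for vcanb, 2.55 for c1qc, −1.35 for c7b, 1.17 for tapbpl and −7.13 for mhc2dab. Cell cycle and metabolic genes gave 1.85 for RRM2 (ENSDARG00000020711), 3.83 for TOP2A, 2.51 for CDK1, 1.44 for PKM (ENSDARG00000099860), −2.07 for TKT, −7.44 for SLC2A1 (ENSDARG00000001437), 4.02 for slc3a2a and 1.29 for ASNS.

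Genes of heart, vessel and other tissues gave 3.23 for nppb, −3.14 for myh6, 2.81 for CLDN5 (ENSDARG00000014059), 1.58 for plvapb, −1.67 for PDGFRA, −1.14 for TBX18, 1.71 for hbaa2 and 1.83 for tfa. hbaa2 and tfa were lower in mutants at both times, and less so at 8 hpi. Of the genes with 0 counts in a genotype at 8 hpi, MFAP4 (ENSDARG00000038683) gave 12.08, FIBIN (ENSDARG00000039949) −9.96, mhc1zka −8.74, slc2a11a −10.79 and si:ch211-216b21.1 −9.03. Fitted differences of genes at or near 0 in a group, these and mhc2dab and SLC2A1 among them, depend on the prior count and are no bound. The cause of the differences was not tested.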

How the results depend on the processing

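The 1881 genes called at 8 hpi became 783 with limma on log2(TPM + 1) and 5445 with the adjusted p alone, and between 1396 and 1866 under DESeq2, total counts, other filters, the groups compared alone and the replicate block. On log2(TPM + 0.1) the calls were 946 higher and 796 lower, against 1227 and 654. Leaving out 1 library gave from 1487 (without replicate 1 of WT) to 2209 genes (without replicate 1 of thraa+/-, 1218 higher and 991 lower). Alternatives chosen after seeing the data left out both replicates 1 (1768 genes) or both replicates 2 (1454). The difference from the uninjured state, 2507 genes, became 1450 on log2(TPM + 1), 4913 with the adjusted p alone and 2183 to 2961 without 1 library. That from 1 dpi, 1657 genes, became 977 on log2(TPM + 1), 349 upward and 628 downward, 545 upward and 880 downward on log2(TPM + 0.1), 3514 with the adjusted p alone and 1352 to 2056 without 1 library. The cause was not tested. The median of all genes was −0.06 and −0.11 on these TPM scales and −0.05 with total counts. The median of thyroid hormone signalling, 0.24, became −0.04 on log2(TPM + 1), −0.14 on log2(TPM + 0.1), −0.01 without replicate 2 of WT and from −0.24 to 0.40 over all 4 left-out libraries, lowest without replicate 1 of thraa+/-, and that of cytokine receptors, 0.12, became −0.01 on both TPM scales.

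Of 82 named genes that were called, 59 were called under every alternative in which they were tested, leaving aside those chosen after seeing the data. On log2(TPM + 1) 20 were lost, and 0 under DESeq2 or the replicate block. Same-numbered replicates of the genotypes deviated together with r = 0.196 at 8 hpi and between −0.015 and 0.011 at the other times, and the labels do not say what a number marks. At 8 hpi same-numbered libraries thus shared part of their deviation, and no pairing is known from the design. With the replicate block 1860 genes were called at 8 hpi, and 2543 and 1695 in the differences from the uninjured state and 1 dpi. With 2 libraries a group, and counts under about 1 CPM for several cytokines, changes of 2-fold were often not detectable.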
